A study of Homo sapiens with 8 samples.

Results

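The microRNA repertoire described here is that of C4-2 control cells, read from the 2 small RNA libraries labelled shCTRL, of 8 libraries in the series. C4-2 is a widely used prostate cancer cell line, a castration-resistant descendant of LNCaP cells that retains the androgen receptor. Both libraries came from cells transfected with the control hairpin shCTRL, so no library of untransfected cells stands behind these values, and per the labels the cells grew in RPMI medium with fetal bovine serum and received no further treatment. The other 6 libraries of the series, 2 of small RNA from shEZH2 cells and 4 of polyA RNA from shCTRL and shCDCA8 cells, were not used. All 1506 rows of the small RNA table were kept, of which 568 name a 5p arm, 569 a 3p arm and 369 no arm. The labels number the libraries 1 and 2 and do not say that they came from separate cultures, so their spread may be technical.

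MicroRNAs are short RNAs cut from hairpin precursors by the nucleases Drosha and Dicer. Either arm of a hairpin, 5p or 3p, can be loaded into an Argonaute protein, where the seed near the 5′ end pairs with sites in messenger RNAs and lowers their translation and stability. MicroRNAs with the same seed form a family with shared targets, and many are cut from a common primary transcript. In prostate epithelium the miR-200 family holds down the ZEB repressors and the let-7 family, whose maturation LIN28 blocks, holds down RAS, HMGA and MYC messages. miR-101 and miR-26a are known to target EZH2, the methyltransferase named by the hairpin of the shEZH2 libraries.

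The sequences that carry most of the repertoire are those of 3 seed families. They are given 5′ to 3′ from RefSeq (GRCh38.p14), with the seed, bases 2 to 8, in capitals. The first set, the 9 let-7 and miR-98 5p forms, shows that the most abundant members differ at few bases outside the seed.
let-7a-5p: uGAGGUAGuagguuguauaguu
let-7b-5p: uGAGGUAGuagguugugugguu
let-7c-5p: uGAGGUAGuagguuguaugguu
let-7d-5p: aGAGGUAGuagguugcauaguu
let-7e-5p: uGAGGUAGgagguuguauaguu
let-7f-5p: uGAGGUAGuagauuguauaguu
let-7g-5p: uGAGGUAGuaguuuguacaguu
let-7i-5p: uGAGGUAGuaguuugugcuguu
miR-98-5p: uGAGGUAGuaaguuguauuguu

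The second set holds the miR-99/miR-100 family, whose members are known to target MTOR, and the third the miR-200 family, whose 4 forms printed here carry 2 seeds that differ at a single base.
miR-99a-5p: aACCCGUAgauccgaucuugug
miR-99b-5p: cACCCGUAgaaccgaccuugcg
miR-100-5p: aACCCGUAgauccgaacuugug
miR-200c-3p: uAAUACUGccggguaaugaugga
miR-200b-3p: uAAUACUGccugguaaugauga
miR-200a-3p: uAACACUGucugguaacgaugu
miR-141-3p: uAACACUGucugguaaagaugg

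With positions counted from 1 at the 5′ end, let-7c-5p differs from let-7a-5p by A19G alone, let-7e-5p by U9G, let-7f-5p by G12A, and let-7b-5p by A17G and A19G. In the same way miR-100-5p differs from miR-99a-5p by U16A, and miR-141-3p from miR-200a-3p by C17A and U22G. Such close copies matter for the values: of 243 rows with at least 100 reads on average and a RefSeq sequence, 32 have another listed row at most 1 base away, and these 32 rows held 49.9% of the row reads in replicate 1 and 50.4% in replicate 2. The sources used here do not say how reads that fit several of these rows were assigned, so the division of reads among let-7a, let-7b, let-7c, let-7e and let-7f, or between miR-99a and miR-100, is uncertain, while the sum of each family is less affected.

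The deposited RPM values (reads scaled to a fixed total) returned whole reads. The microRNA rows held 4064692 reads in replicate 1 and 4582403 in replicate 2, which is 10.8% and 14% of the read totals by which the authors had divided. All shares below are percentages of the reads in the rows. Reads were seen in 1198 rows of replicate 1 and 1163 of replicate 2, and 989 rows had a read in both. Far fewer rows were deep: 532 rows had at least 10 reads in both libraries, 262 at least 100, 119 at least 1000, and 40 at least 10000. A further 134 rows were at 0 in both libraries, and the 383 rows seen in a single library held at most 80 reads there. A row at 0 could still hold up to 7.38e-05% of the reads in replicate 1 and 6.55e-05% in replicate 2, the limit that 3 reads set. This and all intervals cover counting error only. Adapter ligation favours some small RNA sequences over others, so an order of read shares between different microRNAs is not an order of molecule numbers.

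C4-2 control cells put most of their microRNA reads on very few species. In each library 5 rows held 50% of the reads, and 38 rows in replicate 1 and 36 in replicate 2 held 90%. The 4 most abundant rows, let-7a-5p, let-7b-5p, miR-99a-5p and let-7c-5p, held 44.8% and 46.3%, and the 25 most abundant held 81.7% and 83.3%. The libraries shared 23 of their 25 most abundant rows and 94 of their 100 most abundant.

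By mean share, single rows were led by let-7a-5p, at 12.2% of the reads in both replicates (497403 and 557450 reads). Next came let-7b-5p at 11.6% and 12.5%, the highest row of replicate 2, then miR-99a-5p at 12.1% and 10.9%. The range of let-7b-5p over the 2 libraries overlaps with that of let-7a-5p and that of miR-99a-5p, so its place among these 3 is not resolved. let-7a-5p lay above miR-99a-5p in both libraries, and their ranges do not overlap. let-7c-5p followed at 8.88% and 10.7%, below miR-99a-5p in both libraries, and miR-200c-3p at 6.17% and 6.39%. These 5 species stand apart from the rest, since the next row, miR-92a-3p of the growth-promoting miR-17-92 cluster, reached 3.93% and 3.10%. Then came miR-191-5p with 3.41% and 3.04%, miR-423-3p with 2.63% and 2.80%, miR-378a-3p, from an intron of PPARGC1B, with 2.63% and 2.00%, and miR-652-3p with 1.71% and 1.83%. Among the 24 pairs of neighbours in the order of the 25 most abundant rows, 17 had overlapping ranges, and below miR-652-3p the only neighbours whose ranges did not overlap were let-7i-5p and miR-93-5p.

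**Figure D1:**
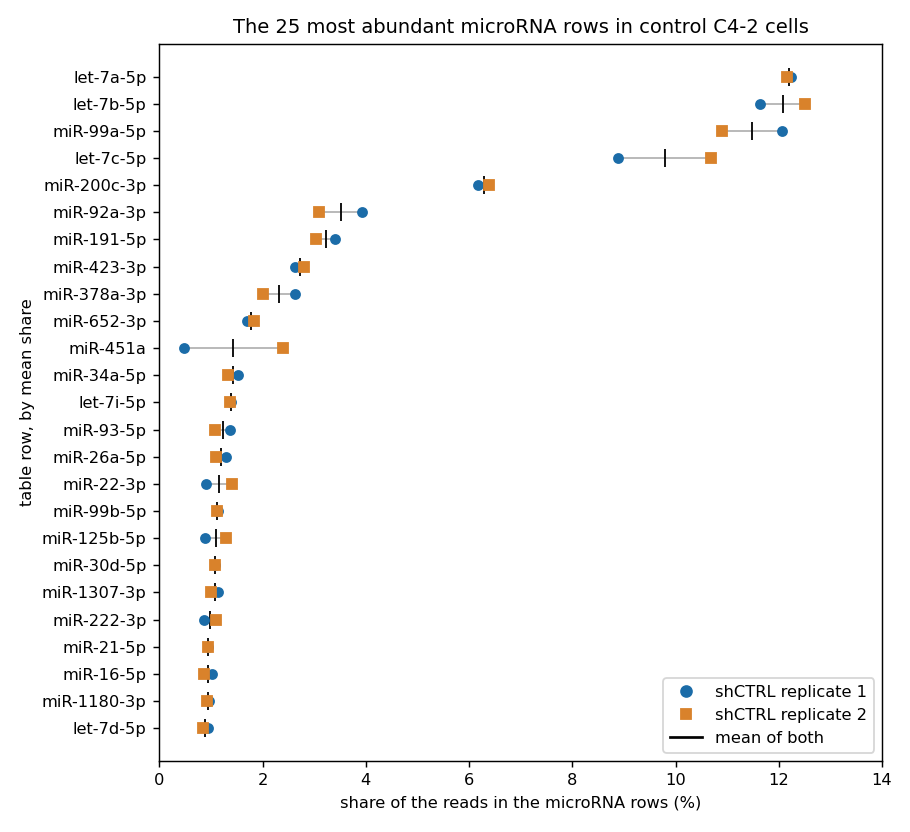
Share of the row reads (%, x axis) held by each of the 25 most abundant microRNA rows (y axis, ordered by mean share) in shCTRL replicate 1 (circles) and replicate 2 (squares), with the mean of both as a bar. Only 4 rows lie near or above 10%, and miR-451a has the widest gap between the libraries, 0.478% against 2.39%.

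Below these, well known cancer microRNAs sat close together near 1%. The p53 target miR-34a-5p held 1.52% and 1.33%, miR-26a-5p 1.30% and 1.10%, and miR-21-5p, which represses PDCD4, 0.949% and 0.945%. The CDKN1B regulator miR-222-3p held 0.871% in replicate 1 and 1.10% in replicate 2. miR-101-3p, named above with miR-26a as targeting EZH2, had 3 and 15 reads, while miR-26a-5p had 52809 and 50624. miR-375, a microRNA of neuroendocrine and prostate cells, held 0.747% and 0.627%.

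The let-7 family was the largest family by a wide margin, with 37.6% of all row reads in replicate 1 and 40.1% in replicate 2 (mean 38.9% ± 1.76, SD, n = 2). Of its 20 rows from 9 named stems, 18 had a read in both libraries. let-7a-5p, let-7b-5p and let-7c-5p together made up 87.0% and 88.2% of the family. The remaining 5p members spanned a wide range of levels: let-7i-5p held 1.39% and 1.38%, let-7d-5p 0.944% and 0.845%, let-7f-5p 0.942% and 0.847%, and let-7g-5p 0.779% and 0.699%. The lowest 2 were let-7e-5p with 13121 and 17070 reads and miR-98-5p with 5831 and 6595. In both libraries let-7d-5p and let-7f-5p lay within their spread of each other, and miR-98-5p lay below every other 5p member.

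The 3p rows of let-7 were a minor component with 1 exception. All 11 of them held 14941 reads in replicate 1 and 21417 in replicate 2, and let-7d-3p alone supplied 93.9% and 93.1% of these. The next 3p rows were let-7a-3p with 285 and 405 reads, let-7e-3p with 283 and 378, and let-7b-3p with 133 and 371. The other 7 let-7 3p rows were lower still, from let-7i-3p with 93 and 154 reads to let-7a-2-3p with 1 and 0 and miR-98-3p with 0 and 2.

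Next in size was the miR-99/miR-100 family, with 13.3% and 12.1% of the reads, nearly all of it miR-99a-5p. Its relative miR-99b-5p held 1.14% and 1.11%, and miR-100-5p only 1526 and 760 reads, the higher count being in the smaller library. The miR-200 family followed with 8.21% and 8.12% (mean 8.17% ± 0.0629, SD, n = 2), the closest agreement among the 3 largest families. Within it miR-200c-3p led with 250903 and 292941 reads, ahead of miR-200a-3p with 35150 and 34036, miR-200b-3p with 29618 and 28782 and miR-429 with 9647 and 8068. miR-141-3p was far lower at 719 and 765 reads, although its sequence is a 2-base variant of miR-200a-3p.

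The other family lists fell well below these 3. The miR-25/miR-92 family held 4.36% and 3.57%, of which miR-92a-3p was the main member and miR-363-3p, with 11 and 99 reads, a minor one. Families between 1% and 2% by mean share were miR-125 (1.32% and 1.79%), miR-26 (1.57% and 1.29%), miR-34/miR-449 (1.53% and 1.33%), miR-15/miR-16 (1.45% and 1.20%), miR-17/miR-106 (1.47% and 1.15%), the miR-96/miR-182/miR-183 group (1.62% and 0.790%), miR-30 (1.14% and 1.14%) and miR-221/miR-222 (0.987% and 1.21%). These lie so close that most of their order is within the spread of 2 libraries. The miR-96/miR-182/miR-183 group had the largest gap between libraries of these. miR-182-5p accounts for most of it, as described further on, and miR-183-5p (0.739% and 0.554%) for a smaller part.

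Most families were carried by 1 member. miR-34a-5p supplied 61967 and 60815 reads of its family, against 141 and 115 for miR-449a and 1 and 7 for miR-34c-5p. In the miR-17/miR-106 family miR-93-5p led with 55771 and 49474 reads, ahead of miR-20a-5p with 1990 and 1453. In the miR-30 family miR-30d-5p had 44117 and 49722 reads, ahead of miR-30a-5p with 885 and 889. The miR-320 family held 0.587% and 0.636%, the miR-181 family 0.377% and 0.290%, the miR-103/miR-107 family 0.176% and 0.129%, the miR-23 family 0.164% and 0.138% and the miR-27 family 0.118% and 0.0983%. The collagen-targeting miR-29 family lay among these at 0.147% and 0.159%. The lowest lists were the miR-10 family (0.0377% and 0.0333%), the DNMT1-targeting miR-148/miR-152 family (0.0282% and 0.0237%), the miR-19 family of the miR-17-92 cluster, with 142 and 158 reads in all, and miR-101, with the 3 and 15 reads given above.

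**Figure D2:**
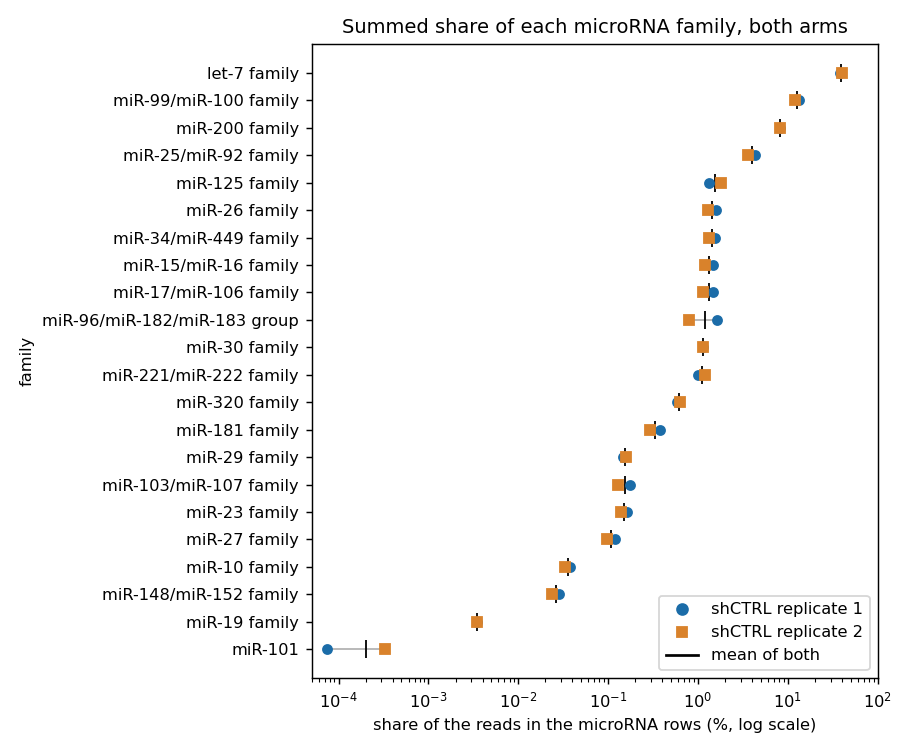
Summed share of the row reads, both arms (%, log scale, x axis), of 22 microRNA families (y axis, ordered by mean) in shCTRL replicate 1 (circles) and replicate 2 (squares), with the mean as a bar. let-7 stands at 37.6% and 40.1%, and the lowest list, miR-101, rests on 3 and 15 reads.

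Grouping by the seed itself, with no list, gave the same leaders. RefSeq holds a mature sequence for 1312 of the 1506 rows, and these carried 95.9% of the row reads in replicate 1 and 94.1% in replicate 2. They fell into 1005 seed groups with a read, yet 2 groups, GAGGUAG (let-7) and ACCCGUA (miR-99/miR-100), were enough for 50% of the matched reads and 20 groups for 90%. GAGGUAG held 37.3% and 39.7% of the row reads, ACCCGUA 13.2% and 12%, AAUACUG (miR-200b, miR-200c and miR-429) 7.14% and 7.20%, and AUUGCAC (miR-25/miR-92) 4.31% and 3.49%. Of the next 6 groups, 3 hold a single row, AACGGAA with miR-191-5p, GCUCGGU with miR-423-3p and AUGGCGC with miR-652-3p. The 10 largest groups together took 75.7% and 74.8% of the reads. Rows with no RefSeq sequence are in no group, among them miR-451a (0.478% and 2.39%) and miR-30d-5p (1.09% and 1.09%).

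The seed CUGGACU joins miR-378a-3p to several paralogues, of which 3 shorter ones are shown because their sequences nearly repeat its first bases.
miR-378a-3p: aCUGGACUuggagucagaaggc
miR-378b: aCUGGACUuggaggcagaa
miR-378f: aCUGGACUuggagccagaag
miR-378i: aCUGGACUaggagucagaagg

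Over their shared length miR-378b differs from miR-378a-3p by U14G, miR-378f by U14C and miR-378i by U9A. Another paralogue, miR-378g, differs by A6G, inside the seed, and so falls outside this seed group. Chosen after their values were seen, 6 paralogue rows (miR-378b, d, e, f, g and i) each had over 1000 reads in both libraries, in all 19088 in replicate 1 and 10466 in replicate 2. Their levels moved as a block: miR-378f had 3881 and 2047 reads, miR-378b 3524 and 1941, and the log2 ratios of replicate 2 over replicate 1 in share ran only from -1.10 to -0.94. miR-378a-3p itself, with 106787 and 91825 reads, had a log2 ratio of -0.39. Whether reads of miR-378a-3p with mismatches enter the paralogue rows was not tested.

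Members of the repertoire had their own base composition. U was the first base of 41.2% of the matched rows but of 64.3% and 66.3% of the matched reads. let-7 weighs heavily here too, since let-7a-5p, let-7b-5p and let-7c-5p all begin with U. In replicates 1 and 2 they held 12.2% and 12.2%, 11.6% and 12.5%, and 8.88% and 10.7% of the row reads. The first-base shares without let-7 were not computed. A began 24.8% of rows and 26.2% and 25.4% of reads, C 22.7% of rows and 8.17% and 7.49% of reads, and G 11.4% of rows and 1.26% and 0.815% of reads. Mature forms of 22 bases were 45.9% of rows and carried 76.5% and 76.9% of reads. The GC content was 54.6% on average over rows and 47.2% and 46.9% when rows were weighted by their reads, which is a description in which let-7 weighs heavily.

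Clustered microRNAs are cut from a common primary transcript, but a mature form made from several loci, such as miR-92a, miR-29b or miR-125b, is counted here with the reads of all of them. miR-99a and let-7c lie next to each other on chromosome 21, at chr21:16539089-16539169 and chr21:16539828-16539911 (GRCh38.p14, plus strand), and this locus also holds a copy of miR-125b. The 2 named 5p rows together held 20.9% of the reads in replicate 1 and 21.6% in replicate 2, the largest share of any of the 3 related clusters. The related cluster on chromosome 19, with MIR99B at chr19:51692612-51692681, gave 1.73% and 1.78% over miR-99b-5p, let-7e-5p and miR-125a-5p. For the chromosome 11 cluster, with MIR100 at chr11:122152229-122152308 on the minus strand, miR-100-5p is the unique 5p row.

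Rows specific to 1 locus showed the same contrast for miR-125b. The 5p form of miR-125b is identical from its 2 loci, but its 3p forms differ: miR-125b-2-3p, from chromosome 21, had 6463 and 8604 reads, and miR-125b-1-3p, from chromosome 11, had 10 and 11. The chromosome 21 form thus made up 99.8% (Wilson 95% interval 99.7% to 99.9%) and 99.9% (99.8% to 99.9%) of the 3p reads. For let-7a, let-7a-2-3p of the chromosome 11 locus had 1 and 0 reads, against 285 and 405 for let-7a-3p. That row pools 2 loci, and the other let-7a genes lie on chromosomes 9 and 22, not 21. miR-181a had 661 and 878 reads of miR-181a-2-3p against 2 and 2 of miR-181a-3p. By contrast miR-29b was near balance, with 470 and 529 reads of miR-29b-2-5p against 323 and 601 of miR-29b-1-5p, and its leading locus differed between the libraries. These locus comparisons were chosen after their values were seen, and a 3p form can differ between loci in stability as well as in transcription, which reads cannot tell apart.

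Other clusters held members at very unequal levels. In 16 of 19 clusters the lowest member had at least 10 reads in both libraries, and the highest exceeded it by 1.32-fold (miR-23b over miR-27b) to 521-fold (miR-532 over miR-188) by mean ratio. In 8 of the 16 the gap was over 10-fold in both libraries. At the extreme of an otherwise abundant pair, miR-200c and miR-141 start within the same stretch of chromosome 12 (chr12:6963699-6963766 and chr12:6964097-6964191), and miR-200c had 251360 and 293412 reads against 788 and 875 for miR-141, 319-fold and 335-fold. The sister cluster was far more even, with miR-200a 3.83-fold and 4.47-fold over miR-429.

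The growth-linked clusters were uneven too. In the miR-17-92 cluster miR-92a had 160039 and 141998 reads and miR-19a 0 and 2, though miR-92a is also made from a copy on chromosome X. In that copy's own cluster, miR-106a-363, the members listed, which leave out miR-92a, were low, with 11 and 99 reads of the highest, miR-363. How the miR-92a reads divide between the chromosomes cannot be told from the shared mature form. In the miR-106b-25 cluster miR-93 exceeded miR-106b 116-fold and 102-fold. The CDKN1B-targeting pair miR-222 and miR-221 lay 7.49-fold and 9.99-fold apart, and miR-191 exceeded miR-425 by 6.74-fold and 6.99-fold. The part of ligation and base composition in these gaps was not tested.

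**Figure D3:**
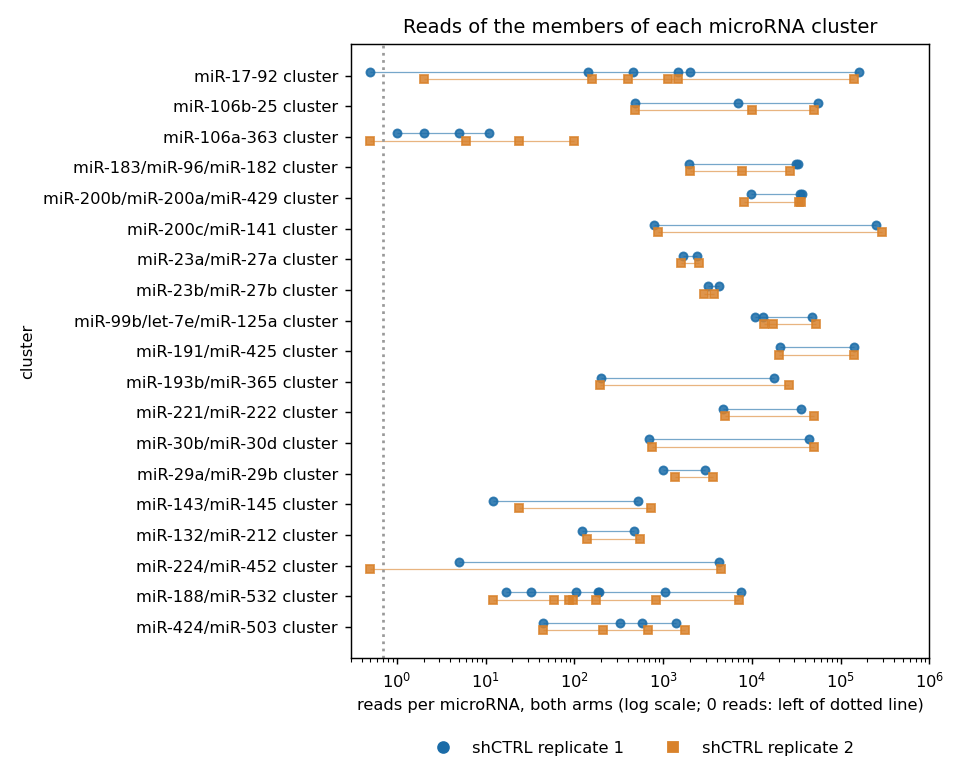
Reads of each microRNA, both arms summed (log scale, x axis), in 19 clusters (y axis; microRNAs made from several loci, such as miR-92a and miR-29b, with the reads of all loci), for shCTRL replicate 1 (circles) and replicate 2 (squares); points left of the dotted line had 0 reads. Members of miR-200c/miR-141 lie 319-fold and 335-fold apart, while the miR-23b/miR-27b pair lies 1.34-fold and 1.29-fold apart.

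Arm use was examined in the 428 hairpins with both arms in the table, 213 of which had at least 20 reads in each library. Neither arm prevailed among hairpins: 109 of 213 (51.2%) had more 5p reads by mean share, 50.2% in replicate 1 and 52.6% in replicate 2. The choice itself was stable, with 105 hairpins led by 5p in both libraries and 99 by 3p, while 9 changed their leading arm, the deepest of them miR-18a with 461 and 397 reads (50.8% and 37.5% on 5p). By reads the picture differs, since 5p rows held 69.5% and 68.4% of all row reads, 3p rows 25.9% and 25.4%, and rows naming no arm 4.59% and 6.15%. Without let-7 the 5p share of arm-named reads was 55.9% in place of 72.8% in replicate 1 and 53.7% in place of 72.9% in replicate 2.

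Most deep hairpins used 1 arm almost alone. Of the 82 hairpins with at least 1000 reads on average, 51 had more 5p reads, and the leading arm held 99% or more in 37, 90% to 99% in 33, 75% to 90% in 8 and less than 75% in 4. The strongest 3p users were miR-222, with 1 and 0 reads on 5p against 35384 and 50282 on 3p, miR-652, with 8 and 11 against 69314 and 84029, and miR-1307, with 13 and 19 against 46392 and 45717. Next came miR-92a, miR-200c, miR-3187, miR-103a, miR-22, miR-23a and miR-24, all of which had less than 0.5% of their reads on 5p in both libraries. For miR-92a and miR-103a the 3p row pools 2 loci while the 5p row listed is from 1 locus, so their 5p share may be too low. On the other side, let-7b, let-7c, let-7g, miR-26a and miR-34a each had over 99.9% of their reads on 5p.

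A few deep hairpins released both arms. miR-324 was at 49.0% 5p (Wilson 95% interval 47.1% to 50.9%) in replicate 1 and 49.98% (48.1% to 51.9%) in replicate 2, so neither library departed from equal use. Its arms carry unrelated seeds and are shown for that reason (RefSeq, GRCh38.p14, seeds in capitals).
miR-324-5p: cGCAUCCCcuagggcauuggug
miR-324-3p: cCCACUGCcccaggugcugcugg

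The other 3 under 75% were miR-28 at 60.4% and 57.4% 5p, miR-574 at 37.6% and 39.5%, and let-7d at 73.2% and 66.0%. let-7d is the only let-7 stem among them, with 38370 and 38739 reads of let-7d-5p against 14033 and 19948 of let-7d-3p, whereas the other let-7 stems and miR-98 kept at least 97.8% on 5p.

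Between libraries the 5p share moved by a median of 1.48 percentage points over the 213 hairpins and 0.275 over the 82 deep ones. Only 3 deep hairpins moved by more than 5 points. miR-25 went from 18.5% 5p in replicate 1 to 28.4% in replicate 2, miR-423 from 4.55% to 12.5%, and let-7d as given above. For miR-25 and miR-423 the 5p share was the higher one in replicate 2, and for let-7d the lower, so the shift did not follow 1 arm.

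**Figure D4:**
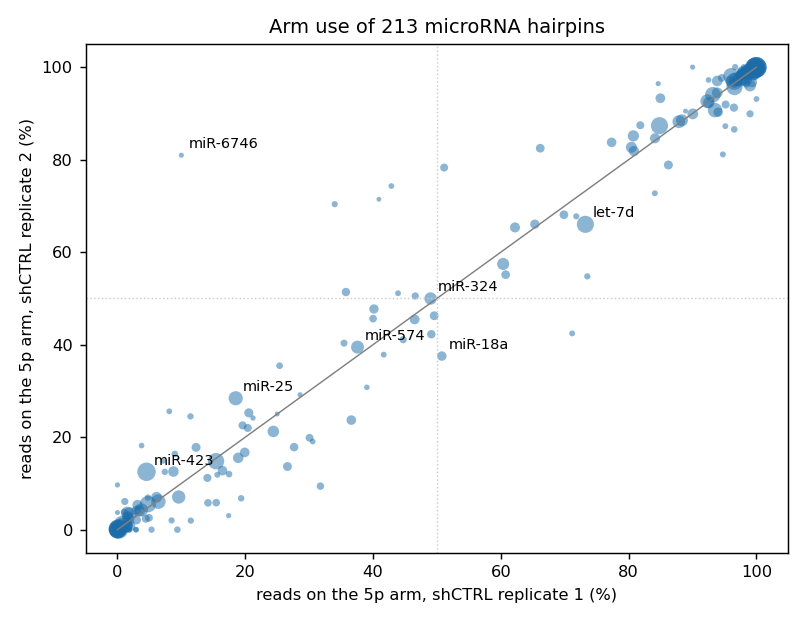
Percentage of reads on the 5p arm in shCTRL replicate 1 (x axis) and replicate 2 (y axis) for 213 hairpins with at least 20 reads in each library; the point area grows with the hairpin's mean reads, the diagonal marks equal values and dotted lines mark 50%. Points crowd at both ends, and miR-423 and miR-25 are the large points that lie above the diagonal.

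The 2 libraries were compared row by row as a description, since both belong to 1 group and no test applies. Over the 459 rows with at least 20 reads on average and a read in both, log10 shares had a Pearson r of 0.957 and a Spearman rho of 0.939, a relation across rows that are not independent. Of 460 rows of that depth, 395 (85.9%) lay within 2-fold and 220 (47.8%) within 1.25-fold. The 65 rows past 2-fold are 14.1% of those compared, 42 higher in replicate 1, 22 higher in replicate 2 and 1 at 0 reads in one library. At 100 reads or more on average, 24 of 274 rows (8.76%) lay past 2-fold, 17 higher in replicate 1 and 7 in replicate 2.

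Depth narrowed the agreement only in part. The median fold between libraries was 1.44 for rows of 20 to 100 reads, 1.22 for 100 to 1000, 1.21 for 1000 to 10000, and 1.15 above. Deviations exceeded counting noise in every bin, with a chi-square per degree of freedom of 7.88 in the lowest and 2815 in the highest, so the files do not hold a single library under 2 names. The share within 2-fold did not climb steadily, at 91.3% for 100 to 1000 reads and 90% for 1000 to 10000.

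The row that parted the libraries most among abundant microRNAs was miR-451a, an erythroid microRNA that Argonaute 2 cuts without Dicer. It had 19446 reads (0.478%) in replicate 1 and 109429 (2.39%) in replicate 2, a 4.99-fold higher share in replicate 2 (95% counting interval 4.92 to 5.07). Another microRNA of red blood cells, miR-486-5p, had 490 and 3112 reads, 5.63-fold (5.12 to 6.21). The red blood cell list summed to 0.491% and 2.46%, of which miR-451a made up 97.5% and 97.1%. miR-144-3p, made from the transcript of miR-451a, stood at 2 and 4 reads and miR-144-5p at 1 and 5, too few to give a direction. The source of the red blood cell reads was not tested.

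The next rows higher in replicate 2 were of other kinds. miR-423-5p had 5101 and 18343 reads, 3.19-fold (3.09 to 3.29), while the other arm of its hairpin, miR-423-3p, differed little. miR-199a-3p had 143 and 370 reads and miR-199b-3p 156 and 378, and since these 2 mature sequences are identical their division between rows has no meaning. The rest of the 10 largest ratios were miR-4483 (65 and 185), let-7b-3p (133 and 371), miR-3180-3p (244 and 547), miR-25-5p (1300 and 2860) and miR-22-5p (79 and 171), of which let-7b-3p, miR-25-5p and miR-22-5p, like miR-423-5p, are the minor arms of abundant hairpins.

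Replicate 1 was the higher library for the largest ratio of all. miR-4292 had 3925 reads in replicate 1 and 1 in replicate 2, a ratio of 4425 in shares with a counting interval of 794 to 174819. Its sequence is shown because it is short and mostly G and C.
miR-4292: cCCCUGGGccggccuugg

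After it came miR-6804-5p with 239 and 12 reads, then miR-182-5p with 32829 and 7612 (4.86-fold, 4.74 to 4.99). miR-182-5p shares a transcript with miR-183-5p, a sensory and epithelial microRNA with 30052 and 25367 reads, so the ratio of miR-183-5p to miR-182-5p was 0.915 in replicate 1 and 3.33 in replicate 2. miR-96-5p of the same transcript had 1955 and 2015 reads, close in both. miR-182-5p is therefore the member of this cluster that set the libraries apart most.

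Further rows higher in replicate 1 were the liver microRNA miR-122-5p with 1360 and 356 reads (4.31-fold, 3.83 to 4.85), miR-31-5p with 781 and 227 (3.88-fold, 3.34 to 4.52), miR-33b-3p with 543 and 235, miR-660-5p with 174 and 84, miR-100-5p with 1526 and 760, miR-3200-5p with 187 and 95, and miR-7706 with 573 and 298. Of the 17 rows of 100 reads or more that were over 2-fold higher in replicate 1, 5 were miR-378 paralogues, the rows b, e, f, g and i described above. Over 407 rows with a sequence, GC content and the log2 ratio of the libraries had a Pearson r of -0.087 and a Spearman rho of -0.046. Mature length and that ratio had a Pearson r of 0.139 and a Spearman rho of 0.052. Without miR-4292, left out after its value was seen, the values for GC content over 406 rows were -0.03 and -0.04.

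**Figure D5:**
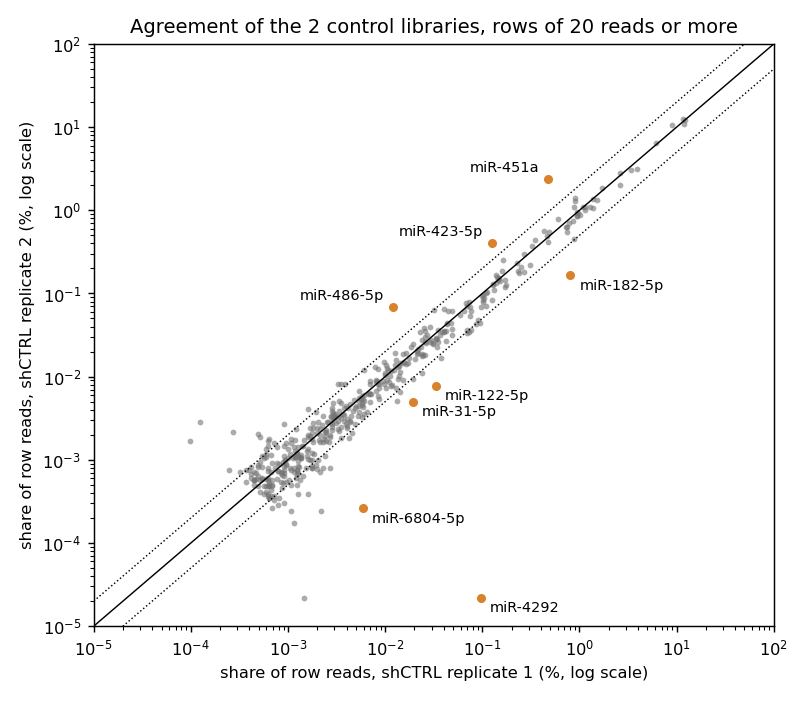
Share of the row reads (%, log scales) in shCTRL replicate 1 (x axis) and replicate 2 (y axis) for rows with at least 20 reads on average and a read in both libraries; the solid line marks equal shares and the dotted lines 2-fold. miR-451a, miR-486-5p and miR-423-5p lie above the band, and miR-182-5p, miR-122-5p, miR-31-5p, miR-6804-5p and miR-4292 below it.

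The label of an epithelial prostate line was set beside marker microRNAs. All 16 rows of the prostate and epithelial list had a read in both libraries, against 989 of all 1506 rows, and miR-205-3p had only 2 and 2 reads. The list summed to 9.02% and 8.81%, led by miR-200c-3p. Most of this sum is the miR-200 family described above, with 8.21% and 8.12%. Low members of the list included miR-203a-3p with 1718 and 1610 reads, miR-141-3p with 719 and 765 and the basal cell microRNA miR-205-5p with 349 and 245. The list of androgen-responsive microRNAs summed to 15.2% and 14.7%, mostly miR-99a-5p, with miR-125b-5p, miR-222-3p and miR-21-5p next. Its low members included miR-27a-3p with 1631 and 1572 reads, miR-148a-3p with 619 and 673 and miR-32-5p with 11 and 8. The sum does not separate microRNAs that androgen raises from those it lowers, so it is no measure of androgen activity.

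Lists for other cell types were lower. The pluripotent cell list, which includes the miR-302 genes and miR-372, had 27 and 13 reads in all, and the leukocyte list 309 and 530, with miR-155-5p at 8 and 15. The muscle list had 731 and 933 reads, mostly miR-143-3p (523 and 732), while miR-133a-3p had 8 and 20 and miR-206 none. The fibroblast list had 357 and 975 reads, led by the miR-199 rows, and the liver list 1450 and 367, led by miR-122-5p. Higher were the endothelial microRNA miR-126-3p, with 6121 and 6407 reads, and the neural list at 0.316% and 0.369%, in which miR-7-5p (6673 and 11617 reads) and miR-9-5p (4459 and 3270) were high and miR-124-3p (26 and 81) and miR-137 (2 and 0) low. The red blood cell list was the highest of these other lists in both libraries, at 19944 reads in replicate 1 and 112679 in replicate 2.

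Few reads fell on the imprinted 14q32 stretch and on a chromosome 19 stretch, both counted over rows with a RefSeq entry. The 46 rows of the 14q32 stretch had 133 and 218 reads in all, led by miR-127-3p with 44 and 82. Of these 46 rows, 13 had a read in both libraries, against 989 of all 1506 rows. Low rows are common in the whole table too, since only 532 of the 1506 had at least 10 reads in both. The chromosome 19 stretch from MIR512-1 to MIR373 holds the cluster C19MC and the neighbouring miR-371a, miR-372 and miR-373 genes. Its 32 rows, 9 of which had a read in both libraries, had 70 and 38 reads. They were led by mean share by miR-512-3p, and miR-371a-3p had 17 and 1. The 746 rows with names numbered 3000 and above held 1.16% and 1.24% of the reads, of which miR-7977 alone had 24219 and 35770.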

How the data were processed

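Small RNA of C4-2 cells was extracted with a Qiagen kit and sequenced on BGI's DNBseq platform, per the labels' protocols, which also describe another extraction without saying for which libraries. TopHat, HTSeq, edgeR, cutadapt and the build hg19 appear in the submitters' processing notes without roles or versions. Which microRNA reference was used is likewise not stated in the labels or headers. The authors deposited RPM values, made by dividing reads by a library total (37471354 and 32666731, recovered here); every value was within 0.01 of a whole read (100%). Each library was then rescaled to the sum of its rows, 4064692 and 4582403 reads. Because these are 2 libraries of 1 group, no test or count model was fitted. Intervals are 95% Wilson intervals for shares and exact binomial ones for ratios, and a count of 0 allows 3 reads.

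Rows were matched to RefSeq mature names (GRCh38.p14), of which 194 rows had no entry, and to 51 hand-written lists (22 families, 19 clusters, 10 marker lists). The members and lists were chosen with earlier results of these data known. Named rows are the 25 most abundant, all let-7 rows, up to 3 leading members per list, the 10 largest ratios in each direction at 100 reads or more, the 10 lowest 5p shares and 5 nearest equal arms at 1000 reads or more, and the leaders of the 10 largest seed groups; others named were chosen after their values were seen. Python 3.11.15, numpy 2.4.6, pandas 2.3.3, scipy 1.17.1 and matplotlib 3.10.9 were used, and the read recovery was tested on simulated data. Alternatives varied the read minimum, the denominator, the seed length, the scaling, and left out each library. The polyA and shEZH2 libraries were not used.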

Additional observations from a re-analysis of the deposited data

How the results depend on the processing

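The rows with a read in both libraries, 989, became 532 at a minimum of 10 reads and 351 at 1 RPM as deposited. With the authors' RPM total as denominator the let-7 share was 4.86% in place of 38.9%, and the miR-200 share 1.01% in place of 8.17%, since that total counts reads outside the rows. Without miR-99a-5p in the denominator let-7 came to 43.9%. The share of hairpins with more 5p reads was 57.0% at 100 reads in each library (151 hairpins) in place of 51.2%. Rows within 2-fold were 91.2% at 100 reads on average and 69.9% of all 989 rows with a read in both, in place of 85.9%. Without the red blood cell rows, an alternative chosen after seeing the data, miR-200 was 8.29%, more than the spread of the libraries away, while let-7 was 39.5% and 37 rows still held 90% of the reads. Leaving out either library gave 36 to 38 rows for 90% of reads, 37.6% to 40.1% for let-7, 8.12% to 8.21% for miR-200, 37.3% to 39.7% for the GAGGUAG seed and 50.7% to 51.3% for hairpins led by 5p. The 5p rows alone (38.5% for let-7), a seed of bases 2 to 7 (38.5%), single-locus hairpins (50% of 188), RPM as deposited (85.4%) and median-ratio scaling (87.0%) moved their values by less. No paired analysis was possible because only 1 group was used. Depth limits the rows under 20 reads, where counting error alone can exceed 1.5-fold, and 2 libraries give an SD with 1 degree of freedom.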
